A study of Mus musculus with 4 samples.

Results

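Metallothioneins are small cysteine-rich proteins that bind zinc and copper and buffer the free level of these metals in the cell. The transcription factor Mtf1 senses zinc and switches on the metallothionein genes through short DNA motifs named metal response elements. Zinc leaves the cytosol through transporters of the Slc30 (ZnT) family and enters it through those of the Slc39 (ZIP) family. In the heart, metallothioneins are known as protectants against oxidative and metal stress. The 6 genes described here were chosen by name, as rows of the deposited read table, and all 6 of 6 were found among its 29595 rows. They are Mt1 and Mt2, the widely expressed metallothionein genes, Mt3, whose product is best known from the brain, Mtf1, the zinc exporter gene Slc30a1 and the zinc importer gene Slc39a14.

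RNA was sequenced from the right ventricle of 4 adult mice on a mixed C57BL/6 background, 2 labelled Ezh2-deficient (mutant 1 and mutant 3) and 2 labelled wild type (wild type 1 and wild type 2). Ezh2 is the methyltransferase of Polycomb repressive complex 2, and the comparison asks which ventricular transcripts differ when it is lacking. The labels do not name the deleted part of Ezh2, a Cre driver or the cells that lack it, nor age in weeks, sex, litter or batch. Libraries were made from polyadenylated RNA and treated with a duplex-specific nuclease, which removes part of the most abundant transcripts, so that a level here is not proportional to RNA across genes.

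The table held 18177642 to 23853394 reads per library, with 34.7% to 47.3% of them mitochondrial. The Ezh2 row stood at 3.48 ± 0.101 CPM, reads scaled to library size (SD, n = 2), in mutant and 3.40 ± 0.0409 in wild-type hearts, so it does not separate the groups. For the Y-linked gene Ddx3y 754 and 659 reads were counted in mutant hearts, against 2 and 2 in wild-type ones. Sex and genotype therefore cannot be told apart in any comparison here. Of 6 cardiomyocyte markers all were read, with a summed level of 24400 to 28200 CPM in mutant and 27400 to 27900 in wild-type hearts. Several marker lists of other tissue differed between the groups or stood apart in 1 library. The 3 atrial markers summed to 113 to 140 CPM in mutant and 5.48 to 55.3 in wild-type hearts. The 5 skeletal muscle markers summed to 184 CPM in mutant 1 and to 3.07 to 3.70 in the other libraries. The 3 erythroid markers found summed to 742 to 940 against 466 to 571 CPM. The 4 adipocyte markers found summed to 326 to 465 against 135 to 274 CPM. Nearly all of that sum was the single row Fabp4, at 322 and 461 CPM in mutant and 133 and 274 in wild-type hearts. Adipoq had 9 and 8 reads in mutant and 3 and 0 in wild-type libraries, and the leptin gene Lep 0 throughout. Endothelial markers summed to 424 to 553 against 492 to 551 CPM, fibroblast markers to 826 to 985 against 854 to 1050, macrophage markers to 138 to 162 against 110 to 155, and smooth muscle markers to 104 to 105 against 120 to 167, where Acta2 was lower but the median log2 fold change of the 4 markers was 0.28. Neutrophil markers summed to 2.29 and 4.31 against 0.604 to 1.2 CPM, and glial markers to 4.11 to 6.58 against 3.47 to 3.65. The part of any of these in the values below was not tested. In whole tissue, fewer cells of a type and less RNA per cell cannot be told apart.

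Mt1, Mt2 and Mt3 lie side by side on chromosome 8 of the mm9 build, all on the plus strand. The deposited spans are 96703127 to 96704227 for Mt1, 96696518 to 96697467 for Mt2 and 96676644 to 96678031 for Mt3. Mtf1 is on chromosome 4 (124479816 to 124524894, plus strand), Slc30a1 on chromosome 1 (193730660 to 193737126, plus strand) and Slc39a14 on chromosome 14 (70703274 to 70751231, minus strand). The DNA just before the starts of Mt1 and Mt2 is shown because these genes share a direction in the comparison below and are the textbook targets of Mtf1. The sequences are the 250 bases before the RefSeq start on build GRCm38.p6, plus strand, at chr8:94178839-94179088 for Mt1 and chr8:94172368-94172617 for Mt2. Capitals mark matches on either strand to the core of the metal response element, searched as TGCACNC and TGCGCNC, 2 patterns that cannot overlap at one position.
Mt1: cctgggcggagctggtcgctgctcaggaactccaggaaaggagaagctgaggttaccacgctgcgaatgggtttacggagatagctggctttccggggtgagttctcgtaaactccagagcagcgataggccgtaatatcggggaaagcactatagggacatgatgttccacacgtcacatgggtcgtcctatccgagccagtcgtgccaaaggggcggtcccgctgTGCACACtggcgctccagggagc
Mt2: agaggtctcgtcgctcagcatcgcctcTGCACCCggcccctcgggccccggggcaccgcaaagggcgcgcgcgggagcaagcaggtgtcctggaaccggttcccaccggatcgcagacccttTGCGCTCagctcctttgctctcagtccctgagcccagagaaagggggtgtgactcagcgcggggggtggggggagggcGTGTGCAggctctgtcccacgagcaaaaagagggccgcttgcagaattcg
Counted from the RefSeq start, the match before Mt1 begins at -23 and those before Mt2 begin at -223, -128 and -50. Further matches begin just past the start, at 3 and 21 for Mt1 and at 5 for Mt2, outside the bases shown. The number of matches before each gene thus depends on where its start is placed. The starts of Mt1 and Mt2 lie 6609 bases apart in the deposited mm9 spans and 6471 apart in RefSeq. Those of Mt1 and Mt3 lie 26483 and 26482 apart, and those of Mt2 and Mt3 19874 and 20011. Relative to Mt1 and Mt3, the start of Mt2 is thus the one placed differently in the deposited spans and in RefSeq. Over the whole 300-base window, which runs 50 bases past the start, Mt1 held 3 matches, Mt2 4, Slc30a1 2, Mt3 1 and Mtf1 0. The RefSeq table gave a window for 5 of the 6 genes, all but Slc39a14. Among 32851 promoter windows of that length, 25.7% held at least 1 match, 7.11% at least 2, 1.97% at least 3 and 0.517% at least 4. A match is a run of letters and not a measured binding site.

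The abundant metallothionein genes Mt1 and Mt2 both stood higher in the Ezh2-deficient ventricles, while none of the 6 genes passed the test over all rows. Mt2 stood at 2.59 times and Mt1 at 1.94 times its wild-type level, and Slc39a14 at 0.680 times. Mt3, Mtf1 and Slc30a1 overlapped between the groups. Levels are CPM after TMM scaling, which sets libraries level on the bulk of their genes. The test was edgeR's quasi-likelihood test with Benjamini-Hochberg adjustment over 16128 rows, and a row is called where the adjusted p is under 0.05. All 6 genes passed the filter on low counts and were tested. By that rule 0 of 6 were called by edgeR and 2 (Mt1 and Mt2) by DESeq2, where the shares of all rows called were 0.13% and 1.09%. At an unadjusted p under 0.05, Mt1 and Mt2 were higher and Slc39a14 was lower, where the shares of all rows were 6.49% and 4.38%. Both mutants exceeded both wild types in Mt1 and Mt2, as in 22.3% of all rows, and both lay below in Slc39a14, as in 22.4%.

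**Figure D1:**
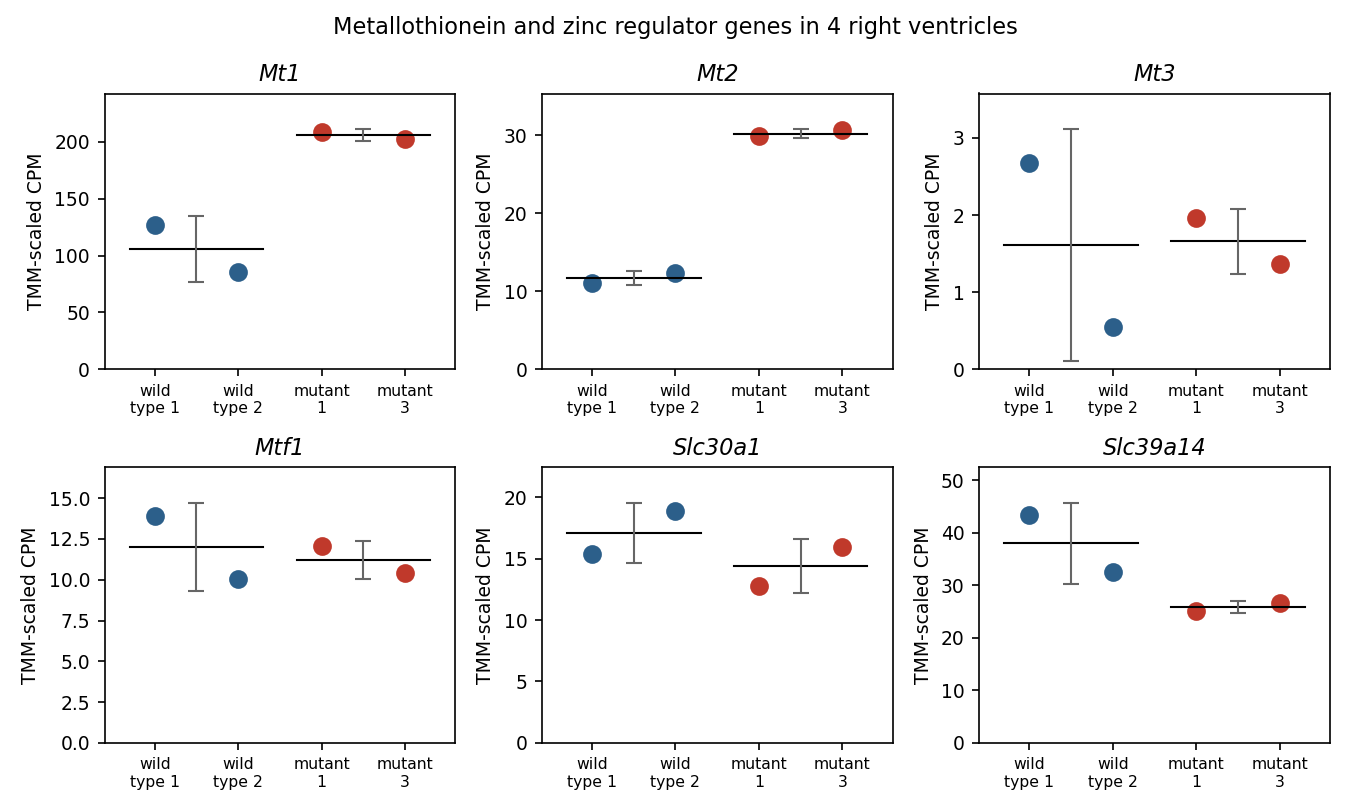
Level of each gene in each right ventricle, in TMM-scaled CPM on a linear axis from 0, with blue points for wild-type and red points for Ezh2-deficient hearts, a line at the group mean and a bar of 1 SD (n = 2). Mt2 lies at 29.9 and 30.6 CPM in mutant and at 11.0 and 12.3 in wild-type hearts, while Mt3 spreads from 0.553 to 2.67 within the wild types.

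Mt2 had 640 reads in mutant 1, 604 in mutant 3, 248 in wild type 1 and 245 in wild type 2. Scaled to CPM these were 29.9, 30.6, 11.0 and 12.3. The replicates of each group lay close together, with a ratio of the higher to the lower of 1.03 in mutant and 1.12 in wild-type hearts. Mean levels were 30.2 ± 0.539 CPM (SD, n = 2) for mutant and 11.7 ± 0.907 for wild-type ventricles. Its log2 fold change was 1.37 ± 0.22 (SE), with a 95% interval of 0.87 to 1.88 and an adjusted p of 0.0837 in edgeR. DESeq2 gave 1.36 with an adjusted p of 0.00108. Without wild type 1 or wild type 2 the log2 fold change was 1.3 or 1.45, and without mutant 1 or mutant 3 it was 1.42 or 1.39. By its unadjusted p of 0.000254, Mt2 ranked 47 of the 16128 rows.

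Mt1 was the most abundant of the 6 genes, with 4484 and 3987 reads in mutant 1 and mutant 3 and 2848 and 1704 in wild type 1 and wild type 2. These were 209, 202, 127 and 85.7 CPM. The mutants differed little from each other, and the wild types differed 1.48 times. The group means were 206 ± 5 CPM (SD, n = 2) and 106 ± 29.1. The log2 fold change was 0.95 ± 0.25 (SE), with a 95% interval of 0.37 to 1.53 and an adjusted p of 0.251 in edgeR, and 0.0481 in DESeq2. Leaving out wild type 1 gave 1.26, and leaving out wild type 2 gave 0.69. Leaving out mutant 1 or mutant 3 gave 0.97 or 1.02.

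The proportion of the 2 transcripts differed in a single heart. Mt1 had 7.01 reads per Mt2 read in mutant 1 (95% exact binomial interval 6.45 to 7.62), 6.60 in mutant 3 (6.06 to 7.20), 6.96 in wild type 2 (6.08 to 7.98) and 11.5 in wild type 1 (10.1 to 13.1). These intervals cover counting error only. Wild type 1 thus stood apart from the other 3 hearts, with the higher Mt1 of the wild types and no higher Mt2. Mt1 and Mt2 are close relatives, but the longest run of identical bases between their reference transcripts was 20, and 27 between Mt1 and Mt3, which bears on reads longer than these runs. How multiply mapped reads were treated is not stated in the labels.

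Mt3 was rare and varied most. Mutant libraries held 42 and 27 of its reads and wild-type libraries 60 and 11, or 1.96, 1.37, 2.67 and 0.553 CPM in the order mutant 1, mutant 3, wild type 1, wild type 2. The wild types held both the highest and the lowest value and differed 4.83 times. The group means were 1.66 ± 0.418 and 1.61 ± 1.5 CPM (SD, n = 2). The log2 fold change was 0.04 ± 0.67 (SE) with a 95% interval of -1.51 to 1.58 (edgeR adjusted p = 0.991), so a change as large as that of Mt2 in either direction is within it. It was 1.58 without wild type 1 and -0.68 without wild type 2. The neighbouring row Mt4, a metallothionein gene known from squamous epithelium, had 0 reads in all 4 libraries and was not tested.

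Mtf1, the zinc sensor that drives the metallothionein genes, was read at similar levels in both groups. Its reads numbered 258 and 205 in mutant against 312 and 200 in wild-type libraries, or 12, 10.4, 13.9 and 10.1 CPM in the same order. Both mutants lay between the wild types. The group means were 11.2 ± 1.16 and 12 ± 2.71 CPM (SD, n = 2), a log2 fold change of -0.10 ± 0.26 (SE) with a 95% interval of -0.70 to 0.51 (edgeR adjusted p = 0.921). These are levels of its transcript and say nothing of its zinc-dependent activity.

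Slc30a1, the exporter of the plasma membrane that is itself a target of Mtf1, did not share the direction of Mt1 and Mt2. Its transcript has 5244 bases, and rows of 4000 to under 8000 bases had a median log2 fold change of -0.12. Rows of 400 to under 700 bases, where Mt1 and Mt2 fall, had a median of 0.46. With a correction for length and GC content Slc30a1 stood at -0.2 (edgeR adjusted p = 0.671). Mutant libraries held 274 and 314 reads and wild-type libraries 346 and 375, or 12.8, 15.9, 15.4 and 18.9 CPM. Mutant 3 lay just above wild type 1, so the groups overlapped. The group means were 14.4 ± 2.22 and 17.1 ± 2.45 CPM (SD, n = 2), with a log2 fold change of -0.26 ± 0.24 (SE) and a 95% interval of -0.81 to 0.30 (edgeR adjusted p = 0.731). Under scaling by total reads alone the groups no longer overlapped, at -0.55 (adjusted p = 0.395). The row AK137370 overlaps the first part of Slc30a1 on the other strand with 3, 5, 15 and 7 reads. Whether the counting used strand is not stated.

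Slc39a14, an importer of zinc and of iron outside transferrin that is induced by interleukin 6 in liver, stood lower in the mutants. Reads numbered 537 and 526 in mutant against 976 and 648 in wild-type libraries, or 25.1, 26.7, 43.5 and 32.6 CPM. Both mutants lay below both wild types, and the wild types differed 1.33 times. The group means were 25.9 ± 1.14 and 38.0 ± 7.68 CPM (SD, n = 2), with a log2 fold change of -0.56 ± 0.23 (SE), a 95% interval of -1.09 to -0.02 and an adjusted p of 0.443 in edgeR. Without wild type 2 the log2 fold change was -0.75, and without wild type 1 it was -0.33. The row fad123 covers most of the same span on the same strand, with 172 and 107 reads in mutant, 237 and 175 in wild-type libraries and a log2 fold change of -0.52 ± 0.29 (edgeR adjusted p = 0.558). Reads of the locus may be split or shared between the rows.

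**Figure D2:**
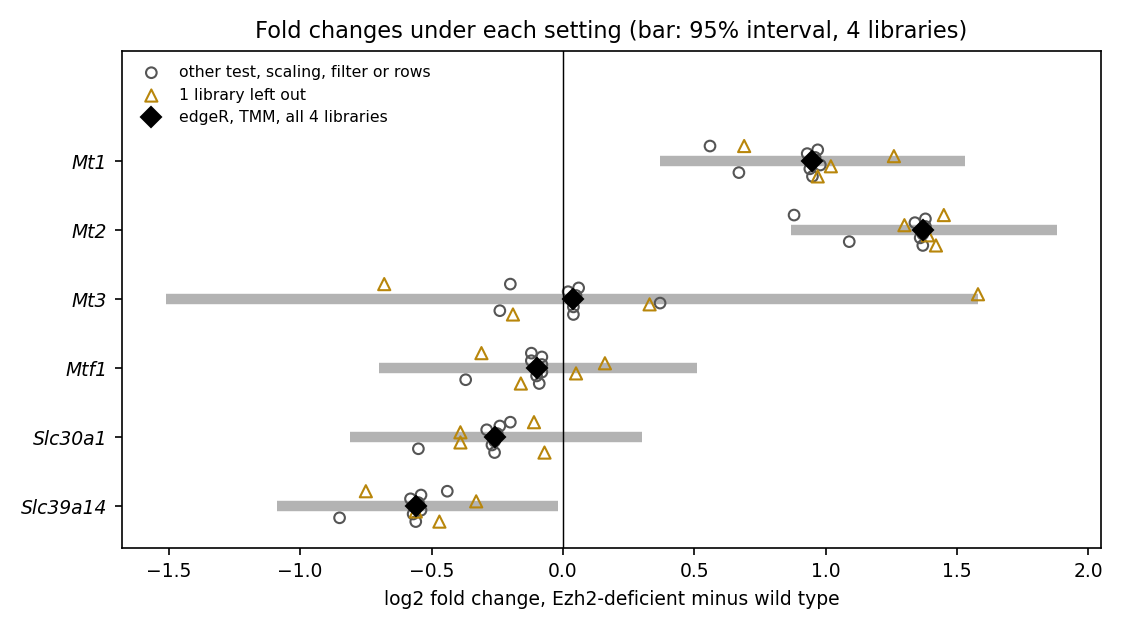
Log2 fold change of each gene, Ezh2-deficient minus wild type, with black diamonds for edgeR on all 4 libraries, grey bars for its 95% interval, circles for other tests, scalings, filters and row sets, and triangles for fits without 1 library. Mt1, Mt2, Slc30a1 and Slc39a14 kept their sign in all 13 alternatives, with Mt2 between 0.88 and 1.45, while Mt3 ranged from -0.68 to 1.58.

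The authors' deposited table also holds ratios between single libraries, on CPM of total reads, and each of the 4 mutant to wild-type ratios of Mt2 was above 1, at 1.88 to 2.39. In the authors' deposited table Mt1 was at 1.18 to 2.20 and Slc39a14 at 0.454 to 0.694. The authors' deposited table also put Slc30a1 at 0.612 to 0.764, Mtf1 at 0.553 to 1.08 and Mt3 at 0.379 to 3.20. These comparisons share their libraries and compare single hearts. The wild types set against each other gave 1.51 for Mt1, 0.916 for Mt2 and 4.93 for Mt3 in the authors' deposited table. For the same genes the authors' ratios of mutant 1 to mutant 3 were 1.24, 1.16 and 1.71. TMM scaling stands apart from total reads by 0.28 on the log2 scale, as the median over all rows was -0.28 with total reads alone and 0 with TMM. With total reads the log2 fold changes of Mt1 and Mt2 were 0.67 and 1.09, to be read against that lower median.

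Per kilobase of transcript, Mt1 stood far above the other genes in both groups. The reference transcripts are 549 bases long for Mt1, 511 for Mt2, 536 for Mt3, 7631 for Mtf1, 5244 for Slc30a1 and 4926 for Slc39a14. Mt1 stood at 375 CPM per kilobase in mutant and 194 in wild-type hearts, and Mt2 at 59.2 and 22.9. Slc39a14 followed at 5.25 and 7.72, then Mt3 at 3.11 and 3.01, Slc30a1 at 2.74 and 3.27 and Mtf1 at 1.47 and 1.57 CPM per kilobase. Of the last 3, Mt3 spanned 1.03 to 4.98 within the wild types, which takes in every value of Slc30a1 and Mtf1. The nuclease step lowers abundant transcripts most, so the distance of Mt1 from the rest may be understated.

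Fold changes followed transcript length across the whole table, and the metallothionein genes are among its shortest. Of the 16128 tested rows, 81.2% could be matched to a reference transcript. The median log2 fold change was 0.46 over 210 rows with transcripts of 400 to under 700 bases, and both mutants exceeded both wild types in 61.4% of them. It was 0.18 over 3010 rows of 700 to under 2000 bases, -0.02 over 5161 rows of 2000 to under 4000 bases and -0.12 over 3942 rows of 4000 to under 8000 bases, where 12.4% had both mutants above. These classes hold 12323 of the tested rows. The longest reference transcript overstates the length of some short genes, such as Rps20 at 3706 bases, and what that does to the trend was not tested. Within the 210 short rows, 36 (17.1%) were at or above the fold change of Mt1, that row included, and 14 (6.67%) at or above that of Mt2. With a correction for length and GC content, chosen after seeing the data, the log2 fold change was 0.56 for Mt1 (edgeR adjusted p = 0.192), 0.88 for Mt2 (0.156) and -0.44 for Slc39a14 (0.379). Without it, the same matched rows gave 0.97, 1.38 and -0.54. Mt3, equally short, stood at 0.04 in the fit on all tested rows, with an interval of -1.51 to 1.58. That interval takes in the median of 0.46 of the short rows, so Mt3 cannot show whether it follows the length trend.

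**Figure D3:**
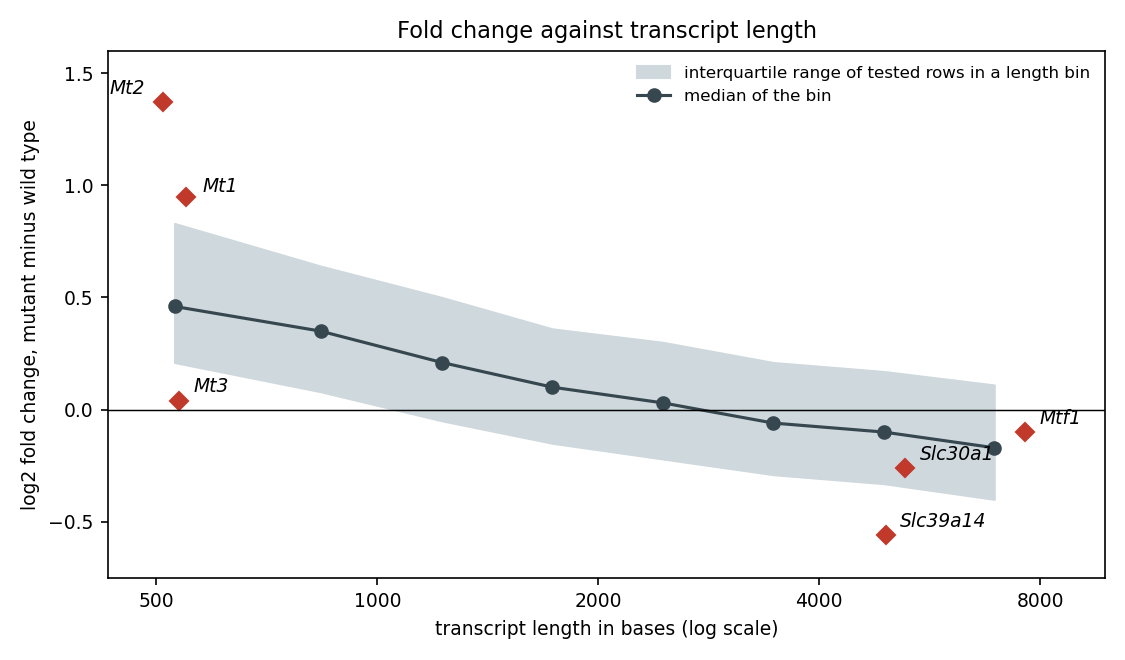
Log2 fold change, Ezh2-deficient minus wild type, against transcript length in bases on a log axis, with the median (line and points) and the interquartile range (band) of tested rows in 8 length bins and the 6 genes as red diamonds. The medians run from 0.46 in the shortest bin to -0.17 in the longest, with Mt1 and Mt2 above the band and Slc39a14 below it.

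The rows whose profile over the 4 libraries was closest to the mean of Mt1 and Mt2 were Rps20, MRPL33, Hspa1l, Cox19 and Tgtp. Closeness was the root mean square difference of centred log2 CPM over 4 libraries, among 8207 autosomal rows of at least 5 CPM. It was 0.046, 0.062, 0.069, 0.069 and 0.073 in that order, and Mt1 and Mt2 themselves lay 0.161 and 0.161 from their mean. Rps20, a gene of the small ribosomal subunit, stood at 188 ± 9.26 CPM in mutant and 87.1 ± 10.0 in wild-type ventricles (SD, n = 2), with processed copies in the genome that may share its reads. MRPL33, of the mitochondrial ribosome, stood at 60.1 ± 1.16 and 25.2 ± 0.933, and Cox19, of cytochrome oxidase assembly, at 44.1 ± 1.22 and 21.2 ± 3.25. Hspa1l, a heat shock protein 70 gene with close paralogs, stood at 9.24 ± 0.660 and 3.79 ± 0.308, and Tgtp, an interferon-inducible GTPase gene, at 25.4 ± 1.33 and 11.3 ± 2.13 CPM. None of the 5 was called (edgeR adjusted p = 0.0837 to 0.169). With 4 libraries many rows can share such a profile, and it was taken as a description.

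The other zinc transporters were not called, and most tested members lay near or below 0. Of 9 other ZnT exporter genes 5 were tested and 0 called by edgeR, with 0 at an unadjusted p under 0.05. In that list 4 of the 5 were below 0, at a median log2 fold change of -0.15, against a median of 0 and 49.5% below 0 over all rows. Slc30a5, an exporter of the early secretory pathway, was at 8.88 ± 1.16 and 11.7 ± 0.0905 CPM (SD, n = 2) in mutants and wild types (log2 fold change -0.40 ± 0.24, edgeR adjusted p = 0.589). Slc30a7, of the Golgi, was at 3.41 ± 0.521 and 3.84 ± 0.966 CPM. Of 13 other ZIP importer genes 11 were tested and 0 called by edgeR, with 7 below 0 and a median of -0.21. At an unadjusted p under 0.05, 1 was higher and 1 lower, where the shares of all rows were 6.49% and 4.38%. Slc39a6 was at 3.25 ± 0.359 and 1.85 ± 0.274 CPM (0.80 ± 0.34, edgeR adjusted p = 0.454). Slc39a9 was at 11.5 ± 0.0580 and 17.3 ± 0.582 CPM (-0.58 ± 0.22, edgeR adjusted p = 0.391). Leaving out a library moved the ZnT median to between -0.39 and 0.11 and the ZIP median to between -0.24 and 0.10, so neither kept its sign.

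Other genes known to respond to Mtf1 or metals did not share one direction, but they were not sorted by the direction of that response. They include Slc39a10, which is also counted among the ZIP importers. Of 8 such genes tested, 0 were called by edgeR, 4 lay above and 4 below 0, and the median was 0.03, or -0.25 with total reads and -0.02 to 0.07 without 1 library. Sepw1, a selenoprotein gene, was at 144 ± 25 and 82.5 ± 25.5 CPM (SD, n = 2; 0.80 ± 0.27, edgeR adjusted p = 0.357). Slc40a1, the iron exporter ferroportin, was at 8.49 ± 3.90 and 14.0 ± 4.48 CPM (-0.72 ± 0.37, edgeR adjusted p = 0.534). Of 8 tested copper genes 6 lay above 0 with a median of 0.32 and 0 called by edgeR, and 3 were higher at an unadjusted p under 0.05, as were 6.49% of all rows. With the length and GC correction that median was 0.14, and 0.03 with total reads, and 0.53 without wild type 1. The same correction put the median of the other Mtf1-responsive genes at -0.14, of the ZnT list at -0.29 and of the ZIP list at -0.2. The copper chaperone gene Cox17 was at 388 ± 27.2 and 255 ± 47.2 CPM and the ferroxidase gene Cp at 52.9 ± 3.28 and 33.4 ± 5.32. Of 7 tested iron genes 5 lay below 0, with a median of -0.25 and 0 called by edgeR. Their median was 0.18 without wild type 2 and -0.14 with the length and GC correction. The ferritin genes, which store iron, were the 2 above 0. They were also the 2 higher at an unadjusted p under 0.05, as were 6.49% of all rows. Fth1 was at 1340 ± 38.3 and 845 ± 255 CPM (edgeR adjusted p = 0.449) and Ftl1 at 343 ± 30.5 and 224 ± 51.9 (edgeR adjusted p = 0.430). Both have many processed copies, so their read assignment is uncertain.

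Glucocorticoids and interleukin 6 are textbook inducers of metallothionein genes. Other glucocorticoid-responsive genes were read alongside, as were genes of the interleukin 6 and Stat3 pathway, its ligands and receptors included. Of 9 tested glucocorticoid-responsive genes 7 lay below 0, as did 49.5% of all rows, with a median log2 fold change of -0.41 (-0.52 with the length and GC correction). The lowest were Pdk4 at -1.78, Per1 at -1.15 and Angptl4 at -0.89. Fkbp5 at -0.13, Zbtb16 at 0.01 and Klf9 at 0.02 lay close to 0. The pyruvate dehydrogenase kinase gene Pdk4 fell, at 108 ± 12.1 CPM in mutant and 373 ± 35.6 in wild-type hearts (SD, n = 2; -1.78 ± 0.23, edgeR adjusted p = 0.0463). It was the 1 call of the list, where edgeR called 0.13% of all rows. In 6 of the 9 both mutants lay below both wild types, as in 22.4% of all rows. Without mutant 1 no gene of the list was called and the median was -0.23. The call was also lost with another scaling (RLE), with a filter at 1 CPM, without sex-linked, mitochondrial and abundant rows, and on the rows matched to a transcript. Of 11 tested genes of the interleukin 6 and Stat3 pathway 8 lay above 0, with a median of 0.10. That median was -0.18 with total reads, -0.09 without wild type 2 and 0.15 with the length and GC correction. By edgeR 0 were called, and 2 by DESeq2, which called 1.09% of all rows. Both mutants lay above both wild types in 3 of the 11, as in 22.3% of all rows, and below in 3, as in 22.4%. The 3 below were Il6st at -0.40, Stat3 at -0.46 and Lif at -0.50. At an unadjusted p under 0.05, where 6.49% of all rows were higher, 2 of the 11 were higher. Those were the acute-phase serpin gene Serpina3n, with 327 and 128 reads in mutant and 38 and 18 in wild-type libraries (3.05 ± 0.50, edgeR adjusted p = 0.0837), and the X-linked metalloproteinase inhibitor gene Timp1, which lies inside Syn1 on the other strand, with 451 and 274 against 108 and 63 reads (2.13 ± 0.33, edgeR adjusted p = 0.0795). Of 9 tested genes of the Nrf2 response to oxidative stress 5 lay above 0, with a median of 0.15 (-0.13 with total reads) and 0 called by edgeR. That median was 0.51 without wild type 1, 0.08 without wild type 2 and 0.07 with the length and GC correction. Nqo1, a quinone reductase gene, was at 53.0 ± 0.631 and 34.9 ± 0.568 CPM (0.60 ± 0.20, edgeR adjusted p = 0.348), and Osgin1 at 2.08 ± 0.359 and 1.12 ± 0.371.

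**Figure D4:**
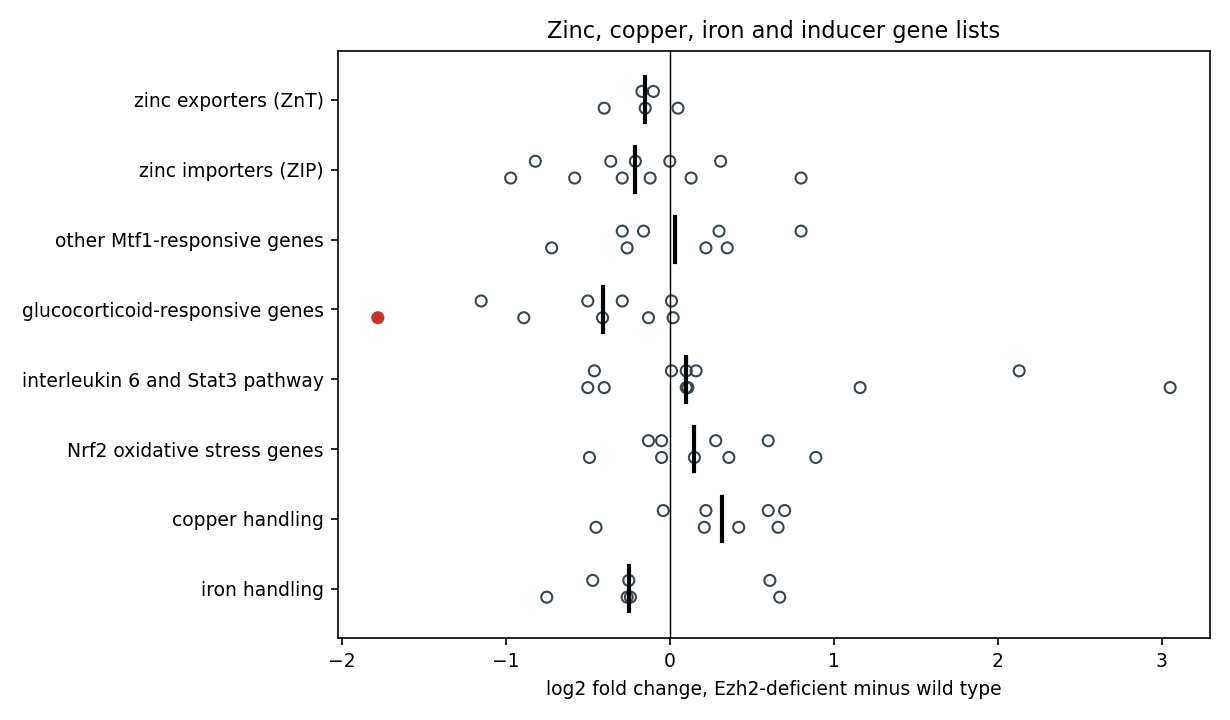
Log2 fold change, Ezh2-deficient minus wild type, of every tested gene (circles) in 8 lists, with a bar at each list's median. The single filled point is Pdk4 at -1.78, the 1 gene of these lists called by edgeR, and the medians run from -0.41 for the glucocorticoid-responsive genes to 0.32 for the copper genes.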

How the data were processed

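RNA-seq libraries of 4 right ventricles were compared, grouped by sample titles. The build named is mm9 and the tools are TopHat 1.2.0 and Cufflinks, per the submitters' processing notes. The sources used here give no counting rule, annotation or use of strand. Per the file headers, the deposited table gives whole-number read counts, not normalised, for each row and library. The authors' normalised value equals CPM on total reads. The authors' ratio and p-value of each pair of libraries are also deposited; the test behind the p-values is not given, and only ratios are printed.

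Counts were tested with edgeR 4.0.16 in R 4.3.3 (quasi-likelihood test, filterByExpr, TMM, all 4 libraries, no covariate), with Benjamini-Hochberg adjustment over 16128 rows and a threshold of 0.05, two-sided. CPM was scaled by TMM. SE came from the F statistic. The fit was tested on simulated data. Nothing says more of the replicates than 2 hearts per group, and p-values measure the spread between these hearts. No relabelling of 2 against 2 can reach 0.05. Intervals of counts cover counting error only. Alternatives were DESeq2 1.42.0, limma-voom (limma 3.58.1), 2 scalings, 2 filters, leaving out each library, and leaving out sex-linked, mitochondrial and abundant rows (over 1% of a library). After seeing the data, a loess correction by transcript length and GC was added, with and without it on matched rows. Transcripts are the longest CCDS-tagged ones of a later annotation (GENCODE M21), used for length, GC and shared runs only. Starts in the table count from 0, as 13 of 13 mitochondrial genes showed, and are printed from 1.

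Members and lists were chosen with earlier results of these data known. Named genes are the members, per list the called genes up to 3 or else the 2 of smallest p, and the 5 rows closest in profile to Mt1 and Mt2 (autosomal, no clone-type name, at least 5 CPM, log2 with a prior count of 2). Mt4, AK137370, fad123, Ddx3y, Fabp4, Adipoq, Lep, Acta2, Syn1 and Ezh2 are named outside this rule. So are Slc39a10, Per1, Angptl4, Fkbp5, Zbtb16, Klf9, Il6st, Stat3 and Lif.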

Additional observations from a re-analysis of the deposited data

How the results depend on the processing

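Over the 13 alternatives, Mt1, Mt2, Slc30a1 and Slc39a14 kept their direction. Among fits on all 4 libraries, Mt1 passed the threshold only with DESeq2 (0.94), and it ranged from 0.69 to 1.26 without 1 library. Among the same fits, Mt2 passed with DESeq2 (1.36) and with no filter on low counts (1.37), and it ranged from 1.3 to 1.45 without 1 library. Slc39a14 and Slc30a1 passed in no fit on all 4 libraries, and Slc39a14 ranged from -0.75 to -0.33 without 1 library. Fits without a library rest on a single heart in 1 group, which is assumed to vary like the other group. Mt3 was -0.24 with total counts scaling, which lowers the median of all rows to -0.28, and so carries that sign by construction. It was -0.20 with the length and GC correction, and ranged from -0.68 to 1.58 without 1 library. Mtf1 ranged from -0.31 to 0.16 without 1 library. Other causes were not tested. Of all rows, 21 were called, 156 with total counts scaling, 203 by DESeq2, 317 with no filter, 3 without sex-linked, mitochondrial and abundant rows, 63 with the length and GC correction and 63 to 3675 without 1 library. With total counts scaling 76 were higher and 80 lower, against 17 and 4. Among glucocorticoid-responsive genes the 1 call became 0 with RLE size factors, with at least 1 CPM in 2 libraries, without sex-linked, mitochondrial and abundant rows and on the matched rows uncorrected. It became 2 with total counts, DESeq2 or no filter, and 0 to 5 without 1 library. In the interleukin 6 list, 0 became 2 with total counts, DESeq2, no filter or the length and GC correction. Among copper, iron, Nrf2, Mtf1-responsive, ZIP and ZnT genes, 0 were called in every fit on all 4 libraries. Without 1 library the calls of most lists moved, and so did those of all rows. Such fits rest on a single heart in 1 group, so their counts by list are not given here. No paired analysis was possible because the labels give no litter or other pairing of the hearts. Mt3 had 11 to 60 reads a library; counting error alone gives its ratio an interval of 0.707 to 1.41, narrower than the fitted one, and its wild types differed 4.83 times.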
